A study of Mus musculus with 76 samples.

Results

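The genes described here are 37 members of the motile axoneme, the microtubule core of sperm tails and beating cilia, out of 25567 genes counted in the series. They were chosen by name: 13 dynein heavy chains, 5 dynein intermediate and light chains, 5 tektins, 6 genes of the nexin-dynein regulatory complex and the axonemal rulers, 3 dynein assembly factors, 4 genes of the central apparatus, and the transcription factor Foxj1. Dnah8 and Tekt4 lie in the t region of chromosome 17, taken as its first 40 Mb, and the other 35 lie outside it.

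The animals were wild-derived house mice (Mus musculus domesticus) bred in the laboratory and sampled as sexually mature adults; an exact age is not given in the labels. The t haplotype is a selfish version of the start of chromosome 17, inherited by most offspring of a +/t father. Each +/t animal was compared with a same-sex +/+ brother or sister, and the 30 animals in 15 such pairs gave 76 whole-tissue RNA libraries. There were 5 pairs for male brain, 7 for female brain, 7 for male liver, 6 for female liver, 7 for ovary and 6 for testis, and neither genotype carried a transgene or received a treatment according to the labels.

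In an axoneme, dynein motors fixed to each outer doublet microtubule walk along the neighbouring doublet and bend the tail or cilium. Outer arm heavy chains set much of the beat frequency, inner arm chains shape the waveform, tektins are filaments inside the doublet wall, and the regulatory complex, the radial spokes and the central apparatus coordinate the motors. Dyneins are folded and preassembled in the cytoplasm by dedicated assembly factors, and FOXJ1 switches on the programme of motile cilia.

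Library totals, in units of 1e6 counts, were 17 to 45.2 in brain, 8.27 to 21.2 in liver, 9.34 to 23.9 in ovary and 11.4 to 28.4 in testis. The labelled tissues carried their markers: summed neuron markers lay between 8019 and 9365 CPM (the count over the library total, times 1e6) in brain, hepatocyte markers between 70880 and 131935 CPM in liver, granulosa cell markers between 2648 and 4479 CPM in ovary, and spermatid markers between 14195 and 17882 CPM in testis. Libraries that stood apart included male brain +/+ pair 2, with nasal epithelium markers at 1457 CPM, though these markers also summed to 140 to 1319 CPM in liver. Liver libraries male +/+ pair 1 and female +/+ pair 4 had spermatid markers at 21.3 and 14.5 CPM. Hepatocyte markers were highest among ovaries in +/+ pair 4, at 691 CPM, and among testes in +/+ pair 4, at 190 CPM. Even numbers made up 59.3% to 68.1% of the mid-range counts in 7 libraries (called even-count libraries here) and 48.7% to 51.2% in the remaining 69. In male liver pair 3 the animal numbers of the titles conflict with the genotype labels of the same animals in other tissues, and the genotype labels were kept. These were whole tissues, so a change in the number of cells of a type and a change in RNA per cell cannot be told apart.

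Start-site windows of 300 bases, 250 before and 50 after the start, were found in RefSeq's GRCm38.p6 table for 34 of the 37 genes. They are shown because most of these genes, though not all, were highest in testis. They are letters of the reference genome, not of these wild mice or of the t haplotype. The 6 letters GTTGCC on either strand, the core of the X-box read by RFX factors of ciliated cells, are in capitals. Dnah8 and Dnah17 are the heavy chains that led the testis comparisons, Tekt4 is the tektin in the t region, and Tekt1 is a tektin outside it.
Dnah8: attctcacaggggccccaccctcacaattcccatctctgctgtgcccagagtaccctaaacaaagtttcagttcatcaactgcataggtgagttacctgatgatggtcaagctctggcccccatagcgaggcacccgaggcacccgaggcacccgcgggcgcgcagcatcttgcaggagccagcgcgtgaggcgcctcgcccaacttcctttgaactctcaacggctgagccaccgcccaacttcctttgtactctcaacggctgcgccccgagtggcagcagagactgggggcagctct
Dnah17: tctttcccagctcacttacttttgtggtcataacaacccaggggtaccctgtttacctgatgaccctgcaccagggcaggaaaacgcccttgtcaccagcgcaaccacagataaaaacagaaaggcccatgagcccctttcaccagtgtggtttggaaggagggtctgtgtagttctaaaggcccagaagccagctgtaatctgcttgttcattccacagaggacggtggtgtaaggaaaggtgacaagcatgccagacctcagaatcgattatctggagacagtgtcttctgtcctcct
Tekt4: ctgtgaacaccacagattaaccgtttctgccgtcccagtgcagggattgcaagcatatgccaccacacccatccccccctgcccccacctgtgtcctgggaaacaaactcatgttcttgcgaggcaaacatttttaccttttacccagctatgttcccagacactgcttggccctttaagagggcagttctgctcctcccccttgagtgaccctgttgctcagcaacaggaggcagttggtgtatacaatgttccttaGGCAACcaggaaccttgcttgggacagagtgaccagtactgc
Tekt1: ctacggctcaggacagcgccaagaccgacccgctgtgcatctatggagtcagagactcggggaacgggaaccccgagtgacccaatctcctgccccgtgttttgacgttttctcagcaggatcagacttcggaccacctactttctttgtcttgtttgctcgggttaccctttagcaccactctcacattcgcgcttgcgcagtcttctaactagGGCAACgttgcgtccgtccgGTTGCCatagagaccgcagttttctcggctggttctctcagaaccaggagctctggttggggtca
The windows are chr17:30626686-30626985 on the plus strand for Dnah8, chr11:118129170-118129469 on the minus strand for Dnah17, chr17:25471340-25471639 on the plus strand for Tekt4 and chr11:72361833-72362132 on the minus strand for Tekt1, each printed 5′ to 3′ along its gene. For all 4 genes the RefSeq start lies inside the longer gene span that GENCODE gives. The letters were absent from the Dnah8 and Dnah17 windows, present once in that of Tekt4 and 2 times in that of Tekt1. Over all members with a window, 14 of 34 held GTTGCC (41.2%), against 12.7% of the 27025 genes in the table. Those 14 were 3 heavy chains (Dnah7a, Dnah7b, Dnah10), Dnaic2 and Dynlrb2, the tektins Tekt1, Tekt2 and Tekt4, Drc1 and Gas8, Dnaaf2, and the central apparatus genes Hydin, Spag6 and Spag16. The other motifs searched on both strands were TGTTTAC, a forkhead form, in 2 of 34 windows (3.55% of all), TGACGTCA, the cyclic AMP response element, in 1 (1.88% of all), and CCAAT in 12 (37.9% of all). Besides these, a longer motif that begins with the X-box core was searched, and it was found in 0 of 34 windows (0.303% of all). A match is a description of the letters and not evidence of a bound site.

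The comparison of +/t with +/+ asked whether carriers of the t haplotype express these genes differently. In testis, Dnah8, an outer arm heavy chain of sperm tails, fell and Tekt4, a tektin of the sperm tail, rose. These were 2 of 37 genes tested, where 1.21% of all genes and 19.9% of the 452 t region genes tested were called (edgeR quasi-likelihood test, Benjamini-Hochberg adjusted p under 0.05). No member was called in the other tissues. The counts were 0 of 35 in male brain (0.251% of all genes called), 0 of 35 in female brain (0.245%), 0 of 6 in male liver (0.0754%), 0 of 7 in female liver (0.0909%) and 0 of 35 in ovary (0.104%). At an unadjusted p under 0.05 the numbers were 1, 2, 1, 2 and 2 in that order, and 6 in testis. DESeq2 called Dnah8 in male liver and in ovary, and no member in the other 3. In each of those 5 comparisons Dnah8 had the smallest p of the members, with a lower mean in +/t. Its median ratio of +/t to +/+ within pairs ran from 0.447 in male brain to 0.607 in female liver, testis included. Dnah8 and Tekt4 lie in the t region, and reads were counted on the reference genome GRCm38. Whether reads from the t copies of these genes were counted as fully as those from the + copies was not tested.

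Dnah8 (chr17:30624354-30877365, plus strand, GRCm38) was the most abundant of the 37 genes in testis by counts. Its testis level in the +/+ brothers of pairs 1, 2, 3, 4, 6 and 7 was 6195, 4315, 5029, 4025, 3740 and 6052 CPM. In the +/t brothers of the same pairs it was 1607, 2605, 1695, 3124, 1515 and 3383 CPM. Every +/t library lay below every +/+ library. The ratio of +/t to +/+ within a pair ran from 0.259 in pair 1 to 0.776 in pair 4, with a median of 0.482. The means were 4893 ± 1046 CPM in +/+ and 2322 ± 825 CPM in +/t (SD, n = 6 each). The log2 fold change was -1.10 ± 0.16 (SE; edgeR quasi-likelihood test, Benjamini-Hochberg adjusted p = 0.0054), lower in 6 of 6 pairs. The call was lost in a robust fit (adjusted p = 0.14) and without the 2 pairs that hold an even-count library (adjusted p = 0.074), where the fold changes were -1.10 and -1.09. Both even-count testis libraries, of pairs 2 and 3, were +/t, so in testis this feature fell on 1 genotype only. Spermatid markers, summed, were 14195 to 16892 CPM in +/+ and 14889 to 17882 CPM in +/t testis.

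**Figure D1:**
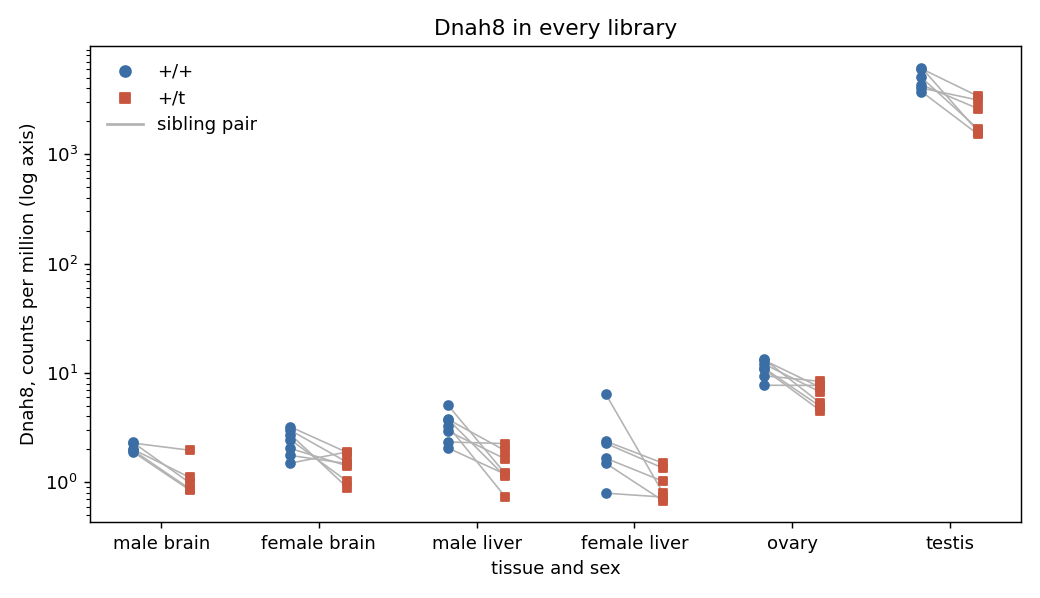
Dnah8 in CPM on a log axis in every library, by tissue and sex; circles are +/+, squares +/t, and lines join the animals of a pair. The 6 testis pairs all slope down, from 3740 to 6195 CPM in +/+ to 1515 to 3383 CPM in +/t, and most pairs of the other tissues slope down from far lower levels.

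Outside testis, Dnah8 was a low transcript. In male brain it was 1.91, 2.29, 1.97, 2.32 and 2.01 CPM in the +/+ animals of pairs 1, 2, 3, 5 and 6, and 0.851, 1.97, 0.875, 0.993 and 1.11 CPM in their +/t brothers. The +/t animal of pair 2 was the only one inside the +/+ range, and all 5 pairs went down (log2 fold change -0.88 ± 0.20, adjusted p = 0.23). In female brain the lowest, median and highest values were 1.5, 2.45 and 3.22 CPM in +/+ and 0.895, 1.48 and 1.9 CPM in +/t. The ranges overlapped, and 6 of 7 pairs went down (-0.73 ± 0.20, adjusted p = 0.51).

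In male liver Dnah8 ran from 2.06 through a median of 3.26 to 5.04 CPM in +/+, and from 0.742 through 1.21 to 2.26 CPM in +/t. It was lower in 7 of 7 pairs, with some overlap of the groups, at -1.17 ± 0.26 (adjusted p = 0.23; DESeq2 called it, adjusted p = 0.043). With the genotypes of pair 3 exchanged the fold change was -0.98. Male +/+ pair 1, with spermatid markers at 21.3 CPM, was at 3.75 CPM against 1.14 CPM in its brother; without that pair the fold change was -1.08 (adjusted p = 0.57). In female liver it ran from 0.796 through 1.96 to 6.36 CPM in +/+ and from 0.681 through 0.916 to 1.5 CPM in +/t, lower in 6 of 6 pairs. The log2 fold change there was -1.13 ± 0.35 (adjusted p = 0.58). The 6.36 CPM belonged to female +/+ pair 4, the library with spermatid markers at 14.5 CPM; without that pair the fold change was -0.68 (adjusted p = 0.73).

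In ovary Dnah8 ran from 7.72 through 11.1 to 13.4 CPM in +/+ and from 4.51 through 6.68 to 8.38 CPM in +/t. It was lower in 7 of 7 pairs, though the 7.72 and 7.70 CPM of pair 3 were nearly equal, and the groups overlapped. The +/+ ovary of pair 5, at 13.1 CPM, held spermatid markers at 8.82 CPM. Outside testis, all libraries with these markers above 5 CPM were +/+, and their part in the Dnah8 differences was not tested. The log2 fold change was -0.80 ± 0.18 (adjusted p = 0.63), and DESeq2 called it (adjusted p = 0.025). The genotype difference of Dnah8 did not pass the test of a difference between the sexes in brain (male minus female -0.15 ± 0.30, adjusted p = 0.98), in liver (-0.05 ± 0.46, adjusted p = 1) or between testis and ovary (-0.30 ± 0.28, adjusted p = 1). In the gonads, sex and organ cannot be told apart.

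Tekt4 (chr17:25454615-25476602, plus strand, GRCm38) went in opposite directions in the gonads, and only the testis change passed the test. In testis it was 315, 345, 344, 317, 297 and 333 CPM in the +/+ animals of pairs 1, 2, 3, 4, 6 and 7, and 371, 380, 392, 340, 352 and 391 CPM in their +/t brothers. All 6 pairs rose, but the 340 CPM of pair 4 lay below the 345 and 344 CPM of +/+ pairs 2 and 3, so the groups overlapped slightly. The log2 fold change was small, 0.21 ± 0.03 (SE, adjusted p = 0.0015), with means of 325 ± 18.9 and 371 ± 21.1 CPM (SD, n = 6 each). Without the pair as a block the same fold change did not pass (adjusted p = 0.22).

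In ovary Tekt4 was 8.19, 12.2 and 15.2 CPM in +/+ at the lowest, median and highest, against 6.0, 8.27 and 9.31 CPM in +/t. It was lower in 6 of 7 pairs and higher in pair 5, whose +/+ library was the lowest +/+ value and held spermatid markers at 8.82 CPM. The log2 fold change was -0.56 ± 0.16 (adjusted p = 1). The difference between testis and ovary in the genotype effect was 0.79 ± 0.15 (adjusted p = 0.079), and it was called without female pair 5 (0.92, adjusted p = 0.0014), by DESeq2 (adjusted p = 3.0e-05) and without the block (adjusted p = 0.016). In brain Tekt4 lay between 0.691 and 2.45 CPM over both sexes and genotypes, with log2 fold changes of 0.06 ± 0.26 in males and -0.10 ± 0.20 in females that did not pass (adjusted p = 0.95 each). In liver it was listed at 0 in 6 of 7 male and 5 of 6 female +/+ libraries and was not tested. The 2 above 0 were male pair 1 at 0.479 CPM and female pair 4 at 0.338 CPM, the libraries with the highest spermatid marker sums of that tissue. In +/t livers Tekt4 was above 0 in male pairs 1, 3 and 4 and female pairs 2, 4 and 5, at 0.0714 to 0.175 CPM. Spermatid markers in those +/t livers were at 0.188 to 4.57 CPM.

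**Figure D2:**
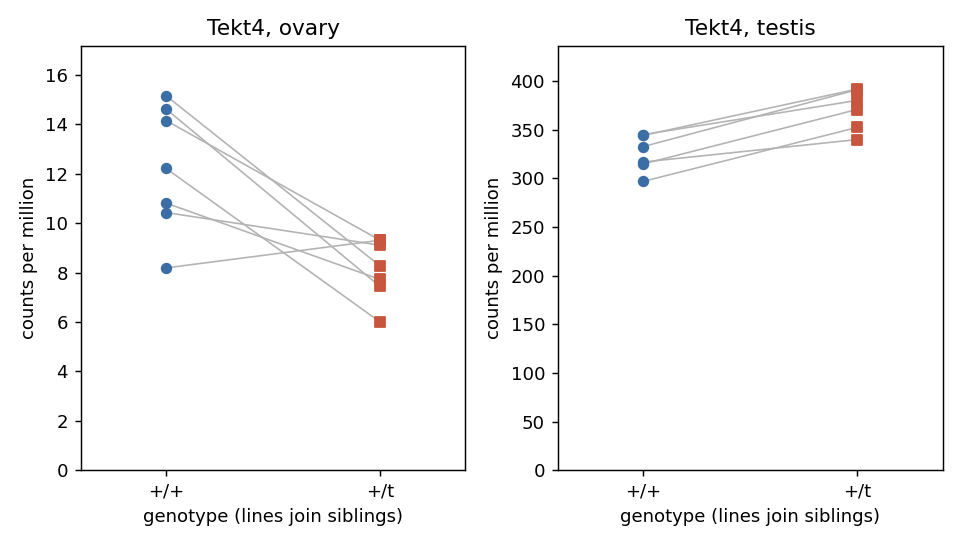
Tekt4 in CPM in ovary (left) and testis (right), each axis starting at 0; circles are +/+, squares +/t, and lines join the animals of a pair. In testis all 6 lines rise, from 297 to 345 CPM to 340 to 392 CPM, and in ovary 6 of 7 lines fall.

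The 35 members outside the t region showed small genotype differences in testis. In testis all 35 were tested and none was called, against 0.644% of all genes outside the region, with 4 at an unadjusted p under 0.05 and 0 called by DESeq2, and their log2 fold changes had a median of 0.01 and ran from -0.28 (Dnah5, at 0.805 to 4.54 CPM) to 0.15 (Dynlrb2, a light chain), beside a median of 0.00 over all 15509 genes tested. The nearest to a call was Dnaaf1, an assembly factor, at 0.09 ± 0.03 and higher in 6 of 6 pairs (adjusted p = 0.13). Dnah17, the other sperm outer arm heavy chain, was 1061 ± 33.8 CPM in +/+ and 994 ± 29.4 CPM in +/t, lower in 6 of 6 pairs at -0.07 ± 0.02 (adjusted p = 0.18).

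Outside testis, the members other than Dnah8 and Tekt4 with an unadjusted p under 0.05 were both in females. In female liver it was Dnah11 (-0.44 ± 0.16, adjusted p = 0.65), and in female brain it was the ruler gene Ccdc39 (-0.18 ± 0.06, adjusted p = 0.88). Some fold changes that were not called were larger than those of testis. Dnaic1, near 0 in some livers, was at -0.87 in male and 0.29 in female liver, and Spag6 was at 0.38 in male brain. No member was called for a sex difference of the genotype effect in brain (0.0064% of all genes called), liver (0%) or gonads (0.0794%), with 2, 0 and 1 at an unadjusted p under 0.05. The 6 comparisons share litters and, between tissues, animals.

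**Figure D3:**
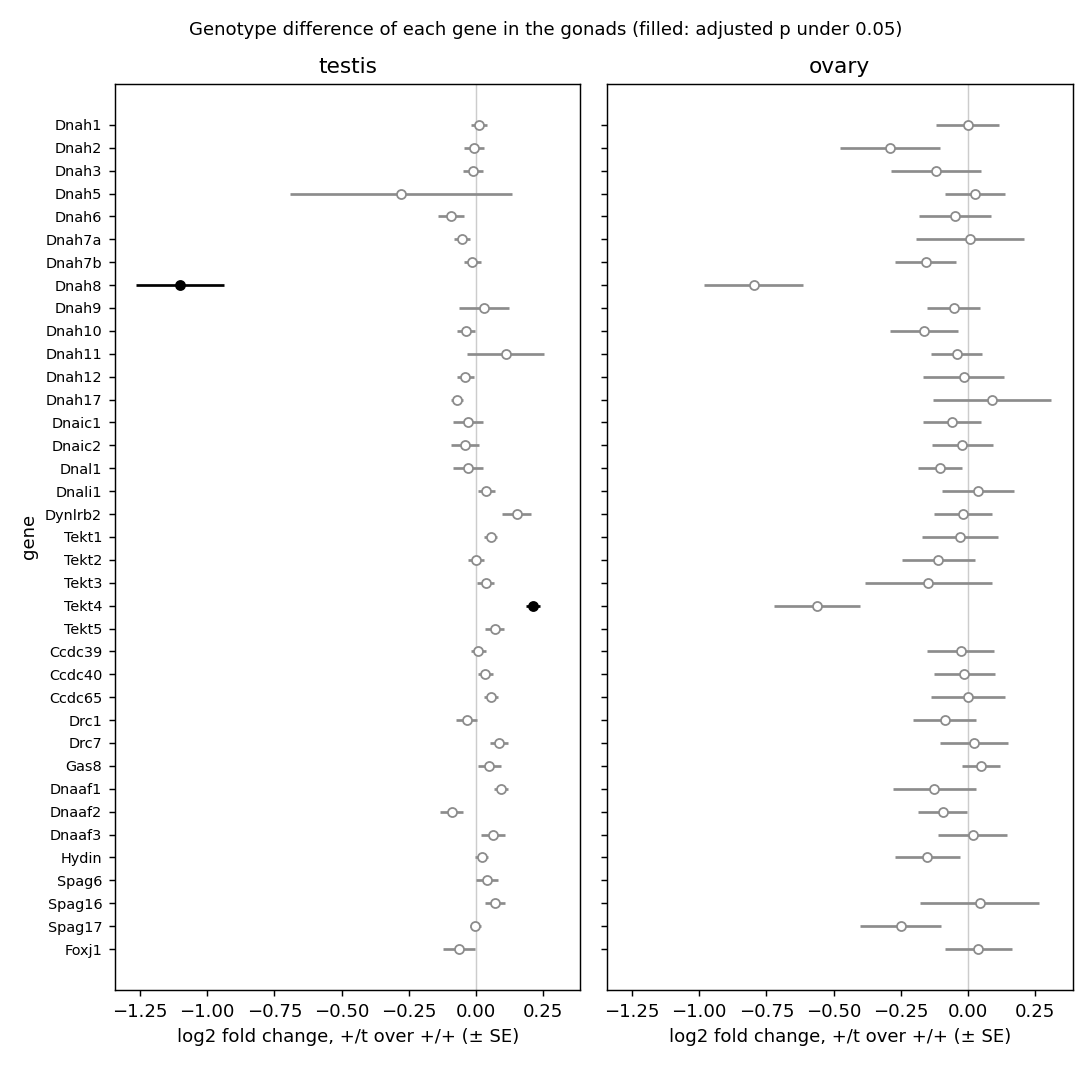
Log2 fold change of +/t over +/+ with its standard error for each gene tested in testis (left) and ovary (right); filled points have an adjusted p under 0.05. In testis Dnah8 at -1.10 and Tekt4 at 0.21 are filled and the rest sit between -0.28 and 0.15; in ovary Dnah8 at -0.80 and Tekt4 at -0.56 lie lowest and no point is filled.

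Among 135 further genes of the axoneme, its assembly, intraflagellar transport and the control of ciliation, 3 were called in testis (2.31% of 130 tested, against 1.21% of all genes), 3 in male brain (2.42%, against 0.251%) and 3 in female brain (2.46%, against 0.245%). There was 1 each in male liver (1.69%, against 0.0754%), female liver (1.54%, against 0.0909%) and ovary (0.775%, against 0.104%). Each was a radial spoke gene. In female liver all 11 genes called lay in the t region, so Rsph3a lies there. The t region also held 34 of the 38 genes called in male brain and 33 of 37 in female brain. In testis 19.9% of the t region genes tested were called. Whether this list held more calls than its t region genes alone would give was not tested. In testis Rsph3a rose by 1.35 ± 0.15 and Rsph3b by 1.36 ± 0.11 on the log2 scale, and Rsph1 fell by 0.84 ± 0.02 (SE). Rsph3a was the gene called in liver and ovary, at 3.07 ± 0.28 in male liver, 2.47 ± 0.19 in female liver and 1.90 ± 0.21 in ovary. The ovary call was lost without pair 1, 6 or 8 (1.82 to 1.92, adjusted p = 0.074 to 0.10), the male liver call with the genotypes of pair 3 exchanged (2.25, adjusted p = 1) and the testis call in a robust fit (adjusted p = 0.068). In male brain Rsph3b was at 1.06 ± 0.18, a call lost in 7 of 13 alternatives (adjusted p up to 0.58), among them those without pair 1, 3, 5 or 6 (0.95 to 1.15). In female brain the call of Rsph1 was lost without the even-count pairs (-0.65, adjusted p = 0.10). Of the spermatid markers Odf1 was called in testis, at 0.10 ± 0.02 (adjusted p = 0.039), and the call was lost in 10 of 14 alternatives, including each with a pair left out (0.08 to 0.10, adjusted p = 0.073 to 0.16).

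Across tissues, in the +/+ animals, most of these genes were highest in testis, and most were close to 0 in liver. The median over the 37 genes of their median level was 199 CPM in testis, 18.4 CPM in ovary, 4.63 CPM in brain and 0.0753 CPM in liver, both genotypes together. Median levels were above 100 CPM for 29 genes in testis, and for 1 each in ovary (Dnah5) and brain (Dnal1). In liver 30 of 37 had a median under 1 CPM. Brain RNA was prepared by another protocol than that of the other organs, so protocol and organ cannot be told apart in comparisons with brain.

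Against male brain of the same 4 animals, 34 genes were higher and 3 lower in testis, where 90.1% of the 16957 genes tested were called, 45.3% higher and 44.8% lower. The median log2 fold change of the members was 5.92, against -0.01 over all genes. The heavy chains Dnah17 (11.78 ± 0.21) and Dnah8 (11.41 ± 0.18) differed most. Dnah17 was 1073 ± 27.7 CPM in these testes and 0.372 ± 0.18 CPM in the brains, and Dnah8 was 4820 ± 1058 and 2.04 ± 0.168 CPM (SD, n = 4). The genes lower in testis were Dnal1 (-1.49 ± 0.09), an outer arm light chain, and the heavy chains Dnah5 (-1.39 ± 0.23) and Dnah11 (-0.80 ± 0.27). All 5 tektins, all 6 genes of the regulatory complex and rulers, all 3 assembly factors and all 4 central apparatus genes were higher in testis. Dnah9 was higher by 0.41 ± 0.14, a call lost without pair 1, 2 or 3 (0.35 to 0.42, adjusted p = 0.051 to 0.094) and on library totals (0.19, adjusted p = 0.23). Dnah11 lost its call without pair 2, 3 or 6 (-0.73 to -0.61, adjusted p = 0.057 to 0.085), with DESeq2 (adjusted p = 0.076) and in +/t animals (adjusted p = 0.064). The brain of pair 2 was the library with nasal epithelium markers at 1457 CPM, and their part in these brain levels was not tested.

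**Figure D4:**
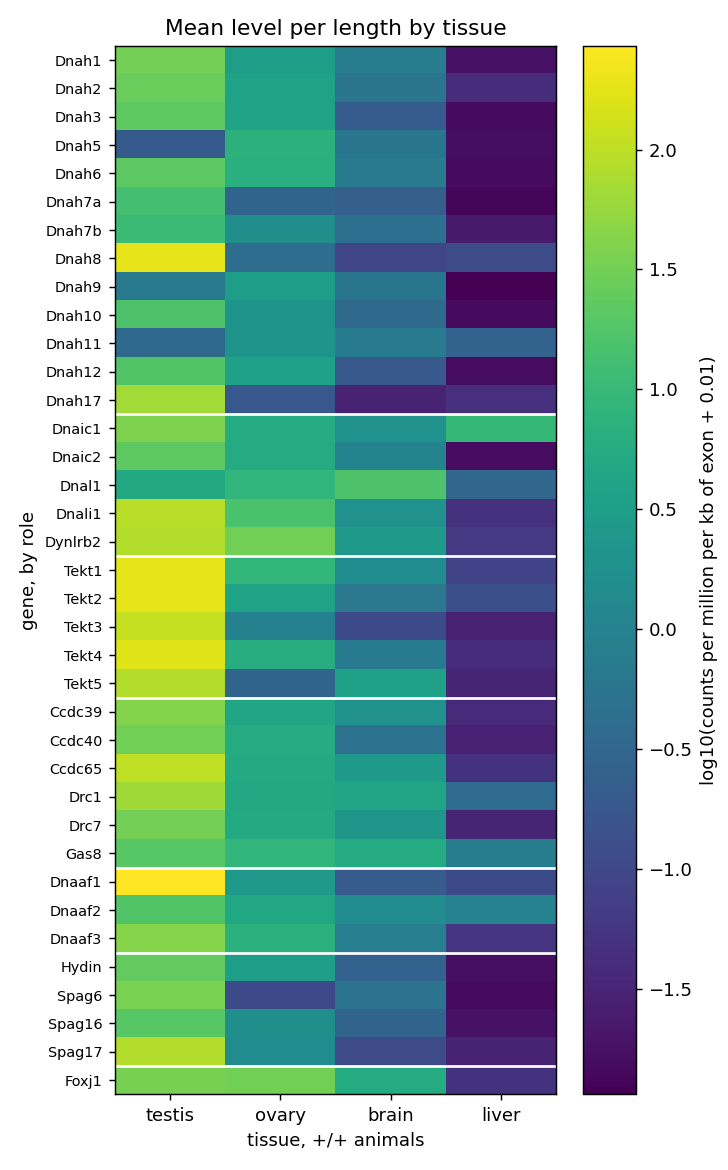
Mean level per length in +/+ animals, as log10 of CPM per kb of exon plus 0.01, for each gene (rows, grouped by role with white lines between groups) and tissue (columns). Testis is brightest for most rows; Dnah5, Dnah9 and Dnah11 are brighter in ovary and Dnal1 in brain.

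Against ovary, 33 genes were higher in testis, 3 were lower and Dnal1 was not called; 91.3% of all 16907 genes were called, 44.1% higher and 47.2% lower. The lower ones were Dnah5 (-4.50 ± 0.29), Dnah11 (-1.74 ± 0.20) and Dnah9 (-1.43 ± 0.13). Dnah5 and Dnah9 are the outer arm heavy chains of ciliated epithelia, and DNAH11 is known from the proximal part of human airway cilia. Dnah5 was 73.0, 114 and 173 CPM at the lowest, median and highest +/+ ovary and 1.05, 3.35 and 4.54 CPM in +/+ testis. Dnah9 was 41.6, 50.9 and 63.1 CPM in ovary and 8.4, 11.2 and 12.2 CPM in testis, and Dnah11 was 21.5, 32.1 and 34.6 CPM in ovary and 2.70, 4.55 and 8.26 CPM in testis. None of these ranges overlapped.

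The counterparts in sperm went the other way. Dnah8 (9.61 ± 0.20) and Dnah17 (9.43 ± 0.12) differed most between testis and ovary, followed by Spag6 (9.24 ± 0.12), a central apparatus gene, and the tektin Tekt5 (8.94 ± 0.15). Dnah17 was 1.92, 2.53 and 3.64 CPM in ovary against 1008 to 1106 CPM in testis. The inner arm heavy chains Dnah1, Dnah2, Dnah3, Dnah6, Dnah7a, Dnah7b, Dnah10 and Dnah12 were all higher in testis, by 2.5 (Dnah6) to 6.37 (Dnah7a). Dnah7a, Dnah7b and the unlisted Dnah7c share 96.9% to 97.3% of their letters over long stretches of transcript, so reads may have been split among them.

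Foxj1 was close between the gonads. It was 60.8, 81.5 and 108 CPM in +/+ ovary and 82.0, 90.7 and 110 CPM in +/+ testis, overlapping ranges on this scale, with a fitted log2 difference of 0.98 ± 0.12 (adjusted p = 7.9e-07) after scaling that was 0.15 on library totals (adjusted p = 0.24). Ovary also held markers of the oviduct and ovarian surface epithelium at 2046 to 5402 CPM, summed, against 46.1 to 59.6 CPM in testis; their part in the ovarian levels was not tested. Scaling factors mattered here. With library totals in place of TMM factors, the median of all genes in testis against ovary moved from -0.10 to -0.92, calls split 5475 higher and 10259 lower in place of 7457 and 7984, and the members split 32 higher and 4 lower. Relative log expression factors moved that median to 0.09, and in testis against brain from -0.01 to 0.15. Dnal1 was 0.07 ± 0.08 after TMM scaling (adjusted p = 0.40), 0.26 with relative log expression factors (adjusted p = 0.0074) and -0.75 on library totals (adjusted p = 1.8e-07).

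Levels per length set genes beside each other, but depend on the exon length used for each gene. On that scale Dnaaf1 was highest in +/+ testis at 270 ± 8.56 CPM per kb of exon (SD, n = 6). Next were Tekt2 at 189 ± 10.6, Tekt1 at 188 ± 13.2, Dnah8 at 182 ± 39.0 and Tekt4 at 163 ± 9.47. Dnaaf1 shares 584 exon bases with Taf1c on the opposite strand. Dnah8 led the heavy chains, and the neighbours Tekt2, Tekt1 and Dnah8 did not differ beyond their spread. The exon length used for Dnah8 was 26820 bases, against 12009 (Dnah12) to 19980 (Dnah7b) for the other heavy chains. With a shorter length Dnah8 would stand higher, so its rank among all genes is not settled. Other lengths were not tried. The leaders of the other classes in testis were Spag17 at 83.8 ± 3.18 CPM per kb in the central apparatus, Dnali1, an inner arm light chain, at 93.3 ± 3.66, and Ccdc65 of the regulatory complex at 104 ± 5.01.

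In +/+ ovary the leaders per length were Dynlrb2 at 31.6 ± 3.82 and Foxj1 at 31.3 ± 6.45 CPM per kb (n = 7), which did not differ beyond their spread. Dnah5 led the heavy chains at 7.39 ± 2.08, Tekt1 the tektins at 9.11 ± 1.33, Gas8 the regulatory complex at 8.76 ± 0.56, Dnaaf3 the assembly factors at 7.55 ± 1.34 and Hydin the central apparatus at 3.11 ± 0.55. In +/+ brain Dnal1 stood highest at 16.2 ± 1.19 CPM per kb (n = 12), ahead of Gas8 at 5.6 ± 0.64 and Foxj1 at 5.59 ± 1.85. Tekt5 led the tektins of brain at 3.59 ± 0.36, Dnaaf2 the assembly factors at 1.45 ± 0.20, Dnah1 the heavy chains at 0.802 ± 0.107 and Spag6 the central apparatus at 0.517 ± 0.134. Dnal1 overlaps Pnma1 on the opposite strand over 384 exon bases, and the strand setting of the counting is not given in the sources used here.

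Brain and ovary were also set against liver, an organ in which most of these genes were close to 0. In female brain against the liver of the same 5 animals, 29 of 34 genes tested were higher (87.3% of all 15213 genes called, 47.2% higher), Dnah8 was lower (40.1% of all genes lower) and 4 did not pass. Spag6 and Dynlrb2 had no counts in any of these livers. Against a floor of 3 counts over the group, Spag6 was at least 38.5-fold and Dynlrb2 at least 27.9-fold higher in brain. Of the genes with liver counts, Dnah9 (7.07 ± 0.42) and Ccdc65 (7.07 ± 0.54) had the highest fitted log2 differences. The lowest were Dnaic1 (-1.83 ± 0.94, adjusted p = 0.086) and Dnah8 (-0.82 ± 0.31, adjusted p = 0.023). Dnaic1 was called lower without pair 4 (-2.54, adjusted p = 0.0084), without pair 5 (-2.58, adjusted p = 0.010), in the +/t animals (-2.07, adjusted p = 0.0049) and without the block (-2.72, adjusted p = 0.0095), and its fold change was -0.91 without pair 7 (adjusted p = 0.43) and -1.18 without pair 2 (adjusted p = 0.31). Dnah8 was 2.30 ± 0.76 CPM in these brains and 2.54 ± 2.21 CPM in the livers, and its call was lost without pair 4 (-0.42, adjusted p = 0.22) and in the +/t animals (-0.04, adjusted p = 0.89), by DESeq2 (-0.67, adjusted p = 0.084), and on library totals, where the sign turned (0.016, adjusted p = 0.96). On library totals all calls split 9906 higher and 3592 lower in place of 7180 and 6096, and 32 members were higher and none lower.

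In ovary against the liver of the same 5 animals, 33 of 35 genes were higher (83.7% of all 15067 genes called, 46.1% higher) and none lower (37.6% of all genes); on library totals the calls over all genes split 12260 higher and 1914 lower in place of 6939 and 5667, and 34 members were higher. Dynlrb2 was at least 364-fold higher against the same floor, and Dnah9 was higher by 9.69 ± 0.32 on the log2 scale, from 0.0135 ± 0.0303 CPM in liver to 50.5 ± 9.70 CPM in ovary. That liver level of Dnah9 rests on very few reads, so the size of its difference is not settled. Over the alternatives it ran from 9.37 to 11.9. The smallest fitted differences were those of Dnah8 (0.54 ± 0.30, adjusted p = 0.12) and Dnaic1 (0.55 ± 1.08, adjusted p = 0.65). That of Dnaic1 averages unlike animals and does not show similar levels in the organs. Its livers were at 0.0872, 0 and 0.079 CPM in pairs 1, 4 and 5, and at 26.6 and 17.7 CPM in pairs 2 and 3. Dnah8 was called without pair 4, at 0.92 (adjusted p = 0.0051), in the +/t animals, at 1.22 (adjusted p = 0.00091), and on library totals, at 2.04 (adjusted p = 0.00014).

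Of the genes with a liver signal, Dnaic1, an intermediate chain of the outer arm, was the highest there per length at 9.27 ± 8.55 CPM per kb, and its spread came from animals at nearly 0 and animals far above that. In +/+ males of pairs 1 to 7 it was 0.479, 36.5, 20.9, 17.8, 56.4, 33.9 and 72.8 CPM, and in their +/t brothers 0, 28.3, 17.1, 30.2, 0, 37.7 and 23.1 CPM. In +/+ females of pairs 1, 2, 3, 4, 5 and 7 it was 0.0872, 26.6, 17.7, 0, 0.079 and 51.9 CPM, and in their +/t sisters 0, 26.7, 22.6, 0.0897, 11.1 and 21.7 CPM. Thus 8 of 26 liver libraries, of both sexes and genotypes, were under 1 CPM (at most 0.479) and the other 18 were at 11.1 CPM or more.

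The labels give the litters of these animals. All 4 animals of the litter of male pair 1 and female pair 1 were low, as were both of female pair 4, and 1 animal each of 2 further litters, female +/+ pair 5 and male +/t pair 5. In the remaining 5 litters no animal was low. Enho, which encodes a small secreted peptide and overlaps Dnaic1 on the opposite strand by 15 exon bases, was low in the same 8 libraries at 0.079 to 0.744 CPM and lay between 29.0 and 89.5 CPM in the other 18. In the other tissues of the same 8 animals Dnaic1 was 4.83 to 6.96 CPM in their 6 brain libraries, 13.2 to 17.3 CPM in 5 ovary libraries and 94.5 to 113 CPM in 2 testis libraries. Enho in those brains was 66.8 to 102 CPM.

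**Figure D5:**
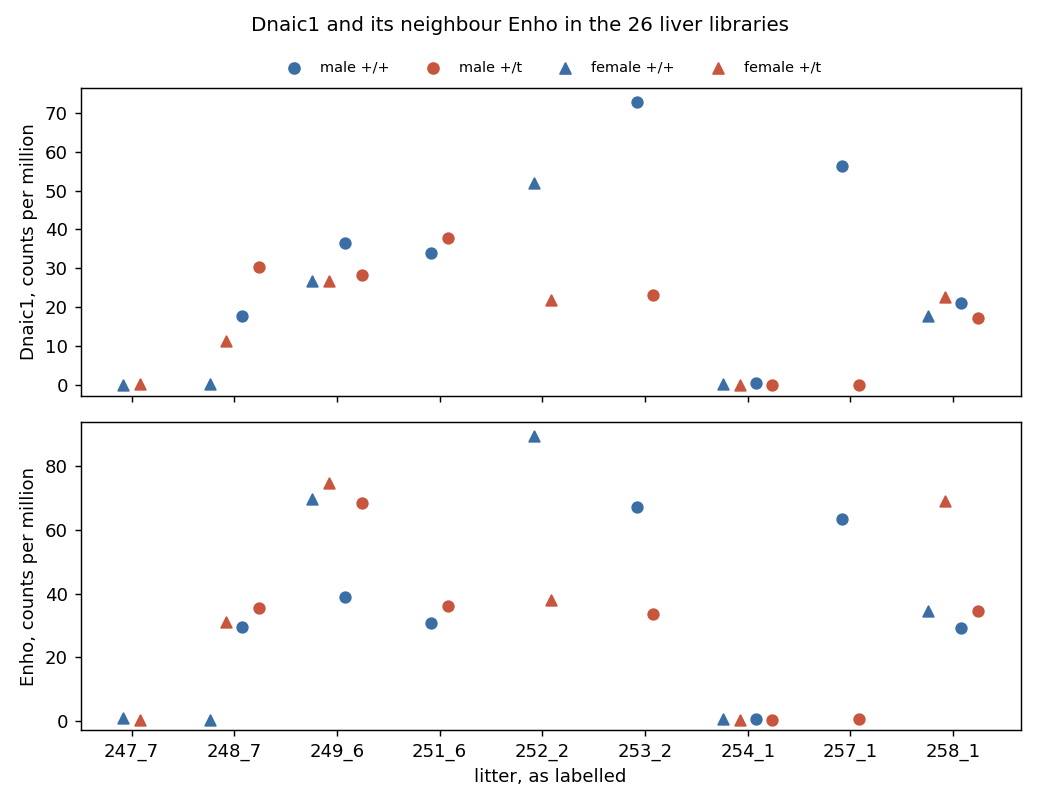
Dnaic1 (top) and Enho (bottom) in CPM in the 26 liver libraries, set out by labelled litter; circles are males, triangles females, blue +/+ and red +/t. In 8 libraries both genes are under 1 CPM, including all 4 of one litter, and in the other 18 Dnaic1 is at 11.1 CPM or more and Enho at 29.0 CPM or more.

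Dnah11 led the heavy chains per length in +/+ female liver, at 0.460 ± 0.097 CPM per kb against 0.093 ± 0.074 for Dnah8. In +/+ male liver the order turned, with Dnah8 at 0.123 ± 0.037 and Dnah11 at 0.091 ± 0.066 CPM per kb, within their spread. The comparison of the sexes for Dnah11 was chosen after its values were seen, so it is given as a description with no test. In +/+ liver it was 5.61, 6.07 and 9.26 CPM at the lowest, median and highest of 6 females and 0.394, 1.09 and 3.23 CPM of 7 males. In +/t liver it was 4.07, 4.89 and 5.79 CPM in 6 females and 0.729, 1.17 and 2.19 CPM in 7 males. The sexes did not overlap in either genotype. Female means were 5.05 times and 3.92 times the male means, in +/+ and +/t, and several males and females came from the same litters. Dnah11 shares 642 exon bases with Cdca7l on the opposite strand, which was 0.913 ± 0.367 CPM in +/+ females and 0.346 ± 0.249 CPM in +/+ males; its part in the Dnah11 counts was not tested. The other classes had liver leaders near the limit of detection, such as Tekt2 at 0.124 ± 0.128 and Spag17 at 0.0214 ± 0.0371 CPM per kb, apart from Dnaaf2 at 0.974 ± 0.138 and Gas8 at 0.814 ± 0.172 CPM per kb.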

How the data were processed

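Per the labels' protocols, gonads and liver went through Trizol and a column kit with DNase, brain through phenol-chloroform, and the mRNA kit kept strand. The submitters' processing notes name STAR 2.5.1b, featureCounts and GRCm38. Which strand setting and which annotation release were used is not given in the sources used here. The deposited values are whole-number read counts per gene, with no normalization by the authors, as the files show.

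From these counts, CPM were computed on library totals, and CPM per kb on the exon length of each gene in GENCODE M21, which held 25472 of the 25567 identifiers. The filterByExpr rule (minimum count 10) chose the genes to test, and TMM factors scaled the libraries. Genes were tested with the quasi-likelihood test of edgeR 4.0.16 in R 4.3.3, with Benjamini-Hochberg adjustment over all genes tested and a threshold of 0.05. +/t was tested against +/+ within tissue and sex with the pair as a block, which the labels name; the correlation of deviations within pairs ran from -0.27 (ovary) to 0.77 (female brain), with every testis pair at 0.23 or more. Tissues were compared in +/+ animals with the animal as a block, except testis against ovary, which had none. Standard errors are the unshrunk log2 fold change over the root of the F statistic. A floor of 3 counts over a group stood in for groups at 0, and covers counting error only. Whether the pairs of a group were housed or processed apart is not given.

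The members and lists were chosen with earlier results of these data known. All 37 genes could be named; values by library were given for the t region genes, called genes, the gene of smallest p per comparison, the highest per length in each role and tissue, and the extremes of each tissue comparison. Alternatives were DESeq2 1.42.0, relative log expression factors, no filter, a minimum count of 50, no block or a litter block, each pair left out, pairs with an even-count library left out, the exchanged labels of male liver pair 3 (see the conflict in its labels), and +/t in place of +/+ animals. A robust fit and library totals without scaling factors were added after seeing the data. In simulated data for testis, 72% of genes changed 1.5-fold and 90% of genes changed 2-fold were recovered. For ovary the rates were 40% and 77%. The changed genes were picked at random over all levels and the simulated counts held no pair effects, so these rates need not hold for the members. Transcripts were compared with blastn 2.17.0, with matches of 500 bases or more at 90% identity or more.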

Additional observations from a re-analysis of the deposited data

Results flagged for a closer look

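Each group of 4 to 10 libraries was searched for a library far from the rest of its group, for Dnah8, Tekt4, Foxj1, Dnaic1 and Dnah11. In 60 groups 7 values stood out, with a threshold meant to pick about 1 in 20 groups of continuous values by chance. The Tekt4 and Foxj1 values in liver rest on a few reads or none, where that rate need not hold. Dnah8 was 1.97 CPM in male brain +/t pair 2, where the other +/t males were at 0.851 to 1.11 CPM. Dnah8 was 6.36 CPM in female liver +/+ pair 4, where the others were at 0.796 to 2.38 CPM. Tekt4 was 0.338 CPM in that same library and 0.479 CPM in male liver +/+ pair 1, and 0 in the other +/+ livers of each sex. Those 2 livers had spermatid markers at 14.5 and 21.3 CPM, and their part in these values was not tested. Foxj1 was 0.394 CPM in male liver +/+ pair 6, against 0 to 0.0874 CPM in the others, and 0.424 CPM in male liver +/t pair 2, against 0 to 0.182 CPM. Foxj1 was 110 CPM in testis +/+ pair 2 against 82.0 to 91.3 CPM in the others.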

How the results depend on the processing

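The number of members called was 0 in each brain, liver and ovary comparison of genotypes and 2 in testis, and leaving out any 1 pair gave 0 and 2 again. DESeq2 called 1 in male liver and 1 in ovary (Dnah8). In testis 1 remained with a robust fit (Tekt4), 1 without the replicate block (Dnah8) and 1 without the pairs that hold an even-count library (Tekt4). For the difference between testis and ovary, 0 were called in the main analysis, 1 with DESeq2, 1 without the replicate block and 0 to 1 with a pair left out (Tekt4). Tissue counts ran from 35 to 36 with a pair left out for testis against brain, 36 to 36 for testis against ovary, 30 to 31 for female brain against liver and 32 to 34 for ovary against liver, from 37, 36, 30 and 33. A minimum count of 50 left 18 in female brain against liver, since fewer genes were tested.

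Some single values changed sign; the cause was not tested. Tekt4 in male brain ran from -0.18 to 0.34 with a pair left out, at -0.18 without pair 3 (also without the even-count pairs, -0.18) and -0.039 without pair 5. In female brain against liver, Dnah11 went to 0.19 in +/t animals and 0.66 on library totals, Dnaaf2 to 0.0069 with DESeq2, 0.0070 with relative log expression factors and 0.78 on library totals, and Dnah8 to 0.016 on library totals. Dnal1 in testis against ovary went to -0.75 on library totals. Dnaic1 in ovary against liver went to -0.60 without the replicate block, -0.45 in +/t animals and -0.078 to 1.88 with a pair left out, below 0 without pair 1 (-0.054), 4 (-0.041) or 5 (-0.078). The sex difference of Dnah8 went to 0.016 in brain without female pair 3 (-0.35 to 0.016 with a pair left out), and in liver to 0.15 without the block and -0.49 to 0.13 with a pair left out. That of Tekt4 in brain went to -0.080 without male pair 3 (-0.080 to 0.44 with a pair left out). The block changed no other call of Dnah8 or Tekt4 between genotypes. Levels under about 1 CPM in liver rest on few reads.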
